A study of Homo sapiens with 8 samples.

Results

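The genes described are the caveolins CAV1 and CAV2 and the cavins PTRF, SDPR and PRKCDBP, 5 of 23686 gene symbols listed for each library. The set was selected on a measured value, the higher CAV2 level after GPX1 depletion in both cell lines, and the other 4 genes were taken as its relatives to ask whether they followed. CAV2's own change is therefore given as a description with no test. PTRF, SDPR and PRKCDBP are the older symbols of CAVIN1, CAVIN2 and CAVIN3. All 5 passed the filter on low counts. SDPR did so with 24 and 32 counts in the 2 HS578T groups, against 1231 and 1571 in the MDA-MB-231 groups.

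RNA was sequenced from HS578T and MDA-MB-231, human breast cancer cell lines that the labels call triple-negative, a class named for the lack of estrogen receptor, progesterone receptor and HER2. Each line was sampled as a control and as siGpx1, with 2 libraries in each of 4 groups. The titles give siGpx1 while the genotype tag reads Gpx1-/-, and the labels name neither the kind of control nor the siRNA. The source labels count the line's number upward from library to library (HS579T, MDA-MB-232 and so on), while the cell line tag and the titles stay constant and were used for grouping. Separate cultures are not mentioned for the replicates, so the p-values may reflect technical spread alone.

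Caveolae are small flask-shaped pits of the plasma membrane, rich in cholesterol, that take part in signalling, lipid handling and protection of the membrane against stretch. Caveolins are inserted in the inner leaflet and form the core of the coat: CAV1 is required for caveolae in most cells, and CAV2 joins CAV1 in mixed oligomers and depends on it to reach the surface. Cavins are cytosolic proteins that assemble around the caveolins: PTRF (cavin-1) is required for caveola formation, SDPR (cavin-2) shapes the membrane curve and PRKCDBP (cavin-3) binds protein kinase C delta. Caveolins and cavins are abundant in adipocytes, endothelium, fibroblasts and muscle.

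The libraries held 12905808 to 14216365 estimated counts. GPX1, the targeted glutathione peroxidase, had 232 TPM (a level scaled by transcript length and library depth) in both HS578T controls and 594 and 634 TPM in the MDA-MB-231 controls. It had 9.02 to 9.52 TPM and 20.4 to 21.8 TPM in the respective siGpx1 libraries, so all 8 libraries lay on the side of their labels. The 2 libraries of a group differed by more than counting noise in every group. The chi-square of the pair, averaged over genes, was 1.35 to 1.93 in 3 groups and 3.91 in HS578T siGpx1. The labels call both lines epithelial. Of 10 epithelial markers, 3 exceeded 1 TPM in the HS578T controls, where CDH1 and CLDN7 had 0 counts, and 7 did in the MDA-MB-231 controls. ESR1 and PGR were under 1 TPM in all 4 groups, and ERBB2 was between 31.8 and 43.8 TPM.

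Promoters are shown for CAV2 and CAV1, neighbours that were both higher after depletion, and for SDPR, the gene that differed most between the lines. RefSeq's table, on build GRCh38.p14 (the files use hg19), held start sites for 3 of the 5 genes. Each window has 300 bases, most of them before the start, written on the coding strand, and capitals mark the GC box, GGGCGG or its reverse complement CCGCCC, searched on both strands with overlaps allowed.
CAV2, chr7:116499488-116499787, plus strand: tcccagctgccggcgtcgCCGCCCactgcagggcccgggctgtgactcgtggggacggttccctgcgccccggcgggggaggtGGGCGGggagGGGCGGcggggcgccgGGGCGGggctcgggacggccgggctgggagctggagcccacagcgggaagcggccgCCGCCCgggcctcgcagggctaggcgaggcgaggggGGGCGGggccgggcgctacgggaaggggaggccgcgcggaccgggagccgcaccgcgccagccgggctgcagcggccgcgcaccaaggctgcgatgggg
CAV1, chr7:116524759-116525058, plus strand: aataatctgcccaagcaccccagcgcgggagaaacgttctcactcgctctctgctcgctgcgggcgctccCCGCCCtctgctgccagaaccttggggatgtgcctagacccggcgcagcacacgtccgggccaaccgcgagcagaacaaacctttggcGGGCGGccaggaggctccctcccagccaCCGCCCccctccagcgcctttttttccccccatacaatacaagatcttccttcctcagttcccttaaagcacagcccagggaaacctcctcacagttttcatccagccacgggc
SDPR, chr2:191847039-191847338, minus strand: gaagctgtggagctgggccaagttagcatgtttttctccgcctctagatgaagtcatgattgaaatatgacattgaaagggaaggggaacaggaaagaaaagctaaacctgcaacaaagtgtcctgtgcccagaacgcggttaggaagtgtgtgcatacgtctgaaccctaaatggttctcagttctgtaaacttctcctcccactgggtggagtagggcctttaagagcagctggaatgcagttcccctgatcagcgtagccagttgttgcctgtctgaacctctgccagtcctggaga
The CAV2 window held 6 GC boxes and 43 CpG dinucleotides, the CAV1 window 3 and 19, and the SDPR window 0 and 5. Among 35116 promoters of the same length, 45% held a GC box and the median was 14 CpG, with 95% having fewer CpG than CAV2 and 29.6% fewer than SDPR. TATAAA or its reverse complement TTTATA was in none of the 3 windows and in 11.5% of all promoters. The other listed start sites, 1 for CAV2 and 2 for CAV1, had 33, 18 and 36 CpG.

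In control cells, PTRF and CAV1 were the most abundant of the 5 genes by TPM, and their order differed between the lines. In HS578T the order of mean levels was PTRF at 725 ± 6.74 TPM (mean ± SD, n = 2), CAV1 at 523 ± 15.3, PRKCDBP at 157 ± 6.27, CAV2 at 39.7 ± 2.21 and SDPR at 0.685 ± 0.148. In MDA-MB-231 it was CAV1 at 660 ± 6.51 TPM, PTRF at 514 ± 19.7, PRKCDBP at 183 ± 7.59, CAV2 at 87.8 ± 2.84 and SDPR at 33.0 ± 0.354. All neighbours in either order lay apart by more than their spread. In the control libraries, the CAV1 to CAV2 ratio of TPM was 12.9 and 13.4 for HS578T, and lower for MDA-MB-231 at 7.64 and 7.4.

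SDPR separated the lines more than any of the other 4 genes. It held 14 and 10 counts in the HS578T controls and 612 and 619 in the MDA-MB-231 controls, 0.79 and 0.58 against 33.3 and 32.8 TPM. The fitted difference between controls was 43.2-fold (log2 difference 5.43 ± 0.145, SE; adjusted p = 1.04e-14 by the quasi-likelihood test of edgeR, Benjamini-Hochberg adjusted over 14249 genes). CAV2 was 2.03-fold higher in the MDA-MB-231 controls (adjusted p = 2.9e-11) and CAV1 1.16-fold higher (adjusted p = 7.14e-05), while PTRF was 1.55-fold lower (adjusted p = 1.19e-10), all by the same edgeR test. PRKCDBP did not pass (log2 difference 0.08 ± 0.0602, adjusted p = 0.243 by edgeR), and its control libraries overlapped on the CPM scale (counts relative to the scaled library size). It passed with limma on log2(TPM + 1) and log2(TPM + 0.1) (0.22 on both, adjusted p = 0.00185 and 0.00227), where the median of all genes went from 0.05 to 0.17 and 0.18, and it was -0.02 without MDA-MB-231 control replicate 2. Of the 5 genes, 3 were thus called higher in MDA-MB-231 and 1 lower, where 43% and 38.6% of all tested genes were called in those directions. A set of 5 genes is too small to set these counts apart from those shares, and no test of the set was run.

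**Figure D1:**
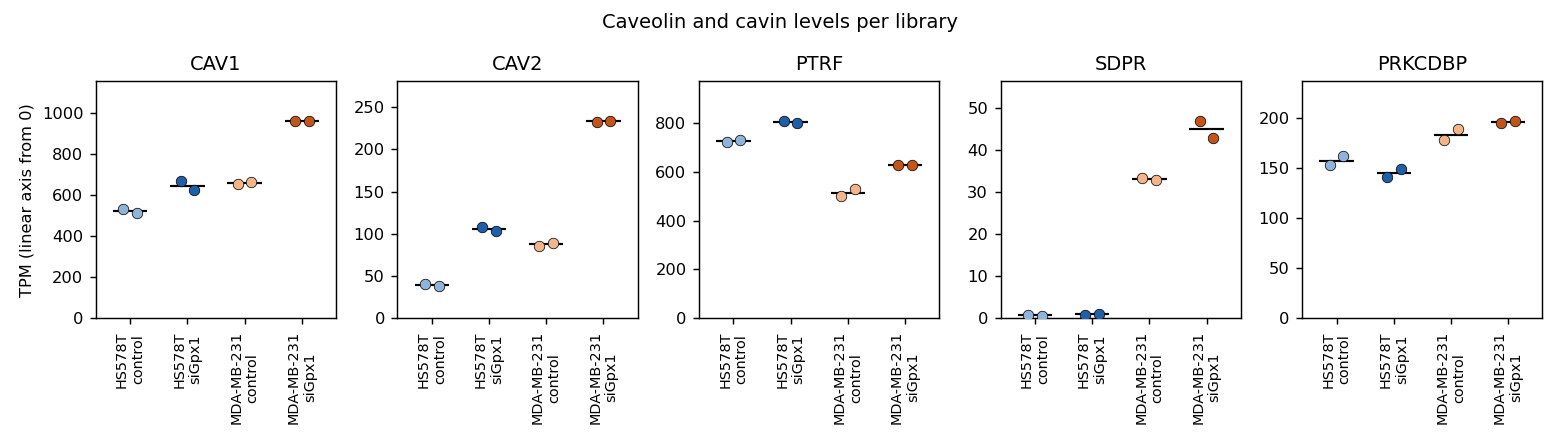
TPM of each gene in each of the 8 libraries (points) with the group mean (bar), 1 panel per gene, all axes linear from 0. CAV2 and CAV1 are higher in both siGpx1 groups, PRKCDBP stays between 141 and 197 TPM, and SDPR is at 1.11 TPM or less in all HS578T libraries.

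CAV2 is the smaller partner of CAV1 in the caveolin oligomer. It had 41.3 and 38.1 TPM in the HS578T controls and 109 and 103 TPM in the siGpx1 libraries. In MDA-MB-231 it had 85.8 and 89.8 TPM in the controls and 233 and 234 TPM in the siGpx1 libraries. In each line both siGpx1 libraries were above both controls, and the HS578T siGpx1 level exceeded the MDA-MB-231 control level. The fitted changes were 2.78-fold in HS578T (log2 change 1.48 ± 0.0507, SE) and 2.65-fold in MDA-MB-231 (1.40 ± 0.0421). Of all tested genes, 1.8% in HS578T and 1.16% in MDA-MB-231 had a change at least as high. These values chose the gene and carry no test.

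CAV1, the principal caveolin, followed with a smaller change. Its levels were 534 and 512 TPM in the HS578T controls and 667 and 624 TPM in the siGpx1 libraries. In MDA-MB-231 they were 656 and 665 TPM against 963 in both siGpx1 libraries. The groups did not overlap in either line. CAV1 rose 1.28-fold in HS578T (log2 change 0.35 ± 0.0367, SE; adjusted p = 9.25e-07) and 1.45-fold in MDA-MB-231 (0.53 ± 0.036; adjusted p = 9.43e-09), by the edgeR test with Benjamini-Hochberg adjustment. In HS578T 21.6% of tested genes had a change at least as high, and in MDA-MB-231 7.44%.

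Of the cavins, PTRF rose in both lines and by less than CAV1's estimate. PTRF, needed for caveola formation, had 720 and 730 TPM in the HS578T controls and 809 and 798 TPM after depletion. In MDA-MB-231 it had 499.9 and 528 TPM in the controls and 626 and 629 TPM after depletion. The siGpx1 libraries were above both controls in each line, by 1.15-fold in HS578T (log2 change 0.20 ± 0.0352; adjusted p = 1.73e-04) and 1.21-fold in MDA-MB-231 (0.28 ± 0.0355; adjusted p = 1.05e-05) in the edgeR fit. Changes of this size were common: 33.7% of tested genes in HS578T and 18.8% in MDA-MB-231 were at least as high.

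SDPR, the membrane-curving cavin, rose in MDA-MB-231. Its libraries had 33.3 and 32.8 TPM in the controls and 47.0 and 42.9 TPM after depletion. The change was 1.35-fold (log2 change 0.44 ± 0.065; adjusted p = 5.29e-05 by edgeR with Benjamini-Hochberg adjustment), and the call was lost with limma on log2(TPM + 0.1), where adjusted p = 0.0984. In HS578T its counts were 14 and 10 in the controls and 13 and 19 after depletion, overlapping ranges that no longer overlapped after scaling to library size, and the fitted log2 change of 0.53 ± 0.33 did not pass (adjusted p = 0.254 by edgeR).

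PRKCDBP, the cavin that binds protein kinase C delta, passed in neither line. It had 153 and 162 TPM in the HS578T controls against 141 and 149 TPM after depletion. In MDA-MB-231 it had 178 and 189 TPM against 195 and 197 TPM. The log2 changes were -0.06 ± 0.0624 (adjusted p = 0.444) and 0.09 ± 0.0588 (adjusted p = 0.24) in edgeR. Its libraries overlapped on the CPM scale in HS578T and did not in MDA-MB-231, with counts of 708 to 1093.

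Counting the 4 genes not chosen for their own change, 2 rose and 0 fell in HS578T (CAV1 and PTRF), and 3 rose and 0 fell in MDA-MB-231 (CAV1, PTRF and SDPR). In HS578T 28.6% of all tested genes were called higher and 22.1% lower. The shares in MDA-MB-231 were 20.7% higher and 21.9% lower. These comparisons use the same control libraries as the comparison of the lines.

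The size of the change was compared between the lines in the same fit. For CAV1 the rise was larger in MDA-MB-231 by 0.18 ± 0.0514 on the log2 scale (adjusted p = 0.0223 by edgeR with Benjamini-Hochberg adjustment), in a comparison where 6.32% of all tested genes were called in that direction. Without HS578T control replicate 1 the adjusted p was 0.0725. PTRF (0.08 ± 0.05, adjusted p = 0.322), SDPR (-0.09 ± 0.325, adjusted p = 0.931) and PRKCDBP (0.15 ± 0.0858, adjusted p = 0.257) did not pass in edgeR. PTRF passed without MDA-MB-231 control replicate 2 (0.22, adjusted p = 0.0149). PTRF and PRKCDBP also passed with a stricter filter on low counts (0.18, adjusted p = 0.0191, and 0.26, adjusted p = 0.0497, respectively), a setting under which the median of all genes in this comparison went from -0.06 to 0.05, as it also did without MDA-MB-231 control replicate 2. In this comparison 900 genes were called higher and 1528 lower, and 1684 and 797 with the stricter filter. CAV2's changes differed by -0.07 ± 0.0667, given with no test.

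The summed TPM of the 5 genes was 1449 and 1442 in the HS578T controls and 1727 and 1675 after depletion, and 1453 and 1504 against 2064 and 2066 in MDA-MB-231. The proportions within the family differed between the groups. The CAV1 to CAV2 ratio of TPM went from 12.9 and 13.4 to 6.14 and 6.03 in HS578T and from 7.64 and 7.4 to 4.14 and 4.11 in MDA-MB-231. CAV2's share of the summed TPM of the 5 genes was 2.85 and 2.64% in the HS578T controls and 6.29 and 6.17% after depletion. In MDA-MB-231 its share was 5.91 and 5.97%, then 11.3% in both siGpx1 libraries. PRKCDBP's share moves with the levels of the other 4 genes in the sum, and its own level passed in neither line. The share went from 10.6 and 11.2% to 8.19 and 8.89% in HS578T and from 12.2 and 12.5% to 9.44 and 9.55% in MDA-MB-231. The ratio of summed caveolins to summed cavins was 0.658 and 0.617 in HS578T controls, 0.815 and 0.767 after depletion, 1.04 and 1.01 in MDA-MB-231 controls and 1.38 in both siGpx1 libraries. With 2 libraries a group an exact permutation test cannot go below p = 0.333, so none was run on these ratios. Since CAV2 chose the set, they are descriptions.

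**Figure D2:**
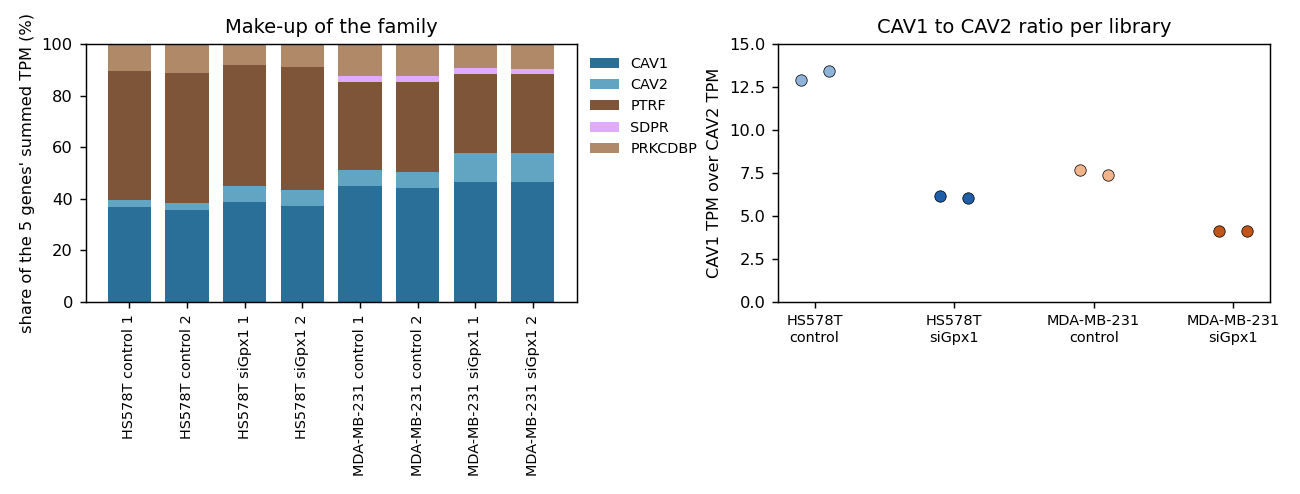
Left, the share of each gene in the summed TPM of the 5 genes, 1 bar per library. Right, CAV1 TPM divided by CAV2 TPM per library on a linear axis from 0, with ratios between 12.9 and 13.4 in HS578T controls and between 4.11 and 4.14 in MDA-MB-231 siGpx1 libraries.

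The gene models of CAV1 and CAV2 each combine 4 RefSeq transcripts, and RSEM's effective length of a gene shifts when their mix changes. It ran from 2597 to 2624 bases for CAV1 and from 3006 to 3029 bases for CAV2. CAV2 had 3012 and 3006 bases in the HS578T controls and 3025 and 3029 in the siGpx1 libraries, and 3022 to 3027 in MDA-MB-231. PTRF, SDPR and PRKCDBP have a single transcript each, and their lengths moved as well, without any mix. SDPR ran from 3201 to 3203 bases in HS578T and from 3194 to 3195 in MDA-MB-231.

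The muscle members of the families were near absent. CAV3, the muscle caveolin, had 0 counts in all 4 HS578T libraries, where the 3 counts that a zero allows correspond to 0.226 to 0.255 CPM, and 2 to 6 counts in MDA-MB-231. It was not tested. MURC, the muscle cavin (cavin-4), had 12 to 30 counts per library and passed after depletion in neither line (by edgeR, adjusted p = 0.141 for HS578T and 0.845 for MDA-MB-231).

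CAV2 and CAV1 lie next to each other on chromosome 7, with TES before CAV2 and MET, CAPZA2 and ST7 after CAV1 in RefSeq's order of protein-coding genes. MET, the hepatocyte growth factor receptor, had 58.6 and 57.8 TPM in HS578T controls and 76.1 and 80.0 TPM after depletion. In MDA-MB-231 it had 103 and 101 TPM, then 152 and 147 TPM. Its log2 changes were 0.48 ± 0.041 (adjusted p = 9.47e-08) and 0.55 ± 0.037 (adjusted p = 1.01e-08) in edgeR. In HS578T the change of MET lay between those of CAV1 and CAV2. In MDA-MB-231 MET and CAV1 (0.53 ± 0.036) lay within an SE of each other. TES, a focal adhesion protein, rose by 0.93 ± 0.045 on the log2 scale in HS578T, from 80.8 and 86.7 to 156 and 151 TPM, and by 0.15 ± 0.042 in MDA-MB-231 (adjusted p = 1.2e-10 and 0.0105 by edgeR). CAPZA2, an actin capping subunit, and ST7 passed in neither line, with log2 changes between -0.14 and 0.10. TFEC, beyond TES, had a mean of 0.15 TPM or less in every group and was not tested. Of the 4 tested neighbours, 2 rose and 0 fell in each line, with medians of 0.29 and 0.05 on the log2 scale. Among all tested genes 28.6% rose and 22.1% fell in HS578T, and 20.7% rose and 21.9% fell in MDA-MB-231. Between controls all 4 were called higher in MDA-MB-231, as were 43% of all tested genes.

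**Figure D3:**
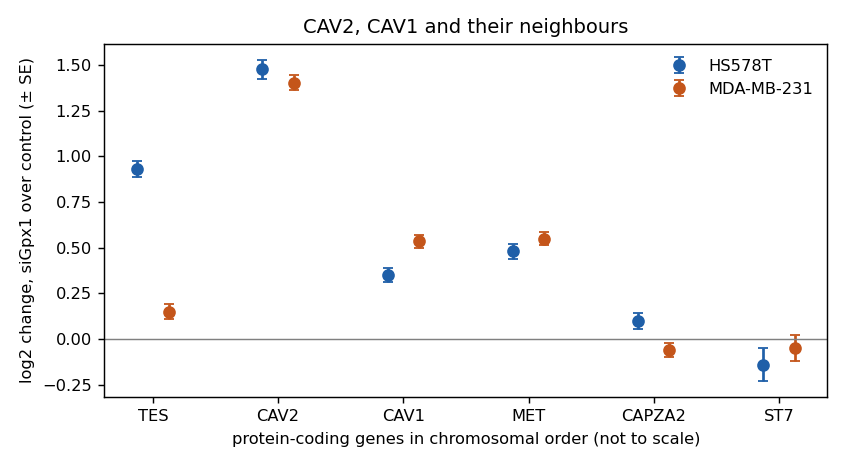
Fitted log2 change after siGpx1 (point, ± SE) of CAV2, CAV1 and the tested neighbours, in chromosomal order and not to scale, for each line. CAV2 is highest at 1.48 and 1.40, MET and CAV1 lie between 0.35 and 0.55, and TES differs between the lines.

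Genes of the caveola neck moved in both directions. EHD proteins are ATPases that anchor caveolae at the surface, PACSIN2 is a membrane-bending protein of the neck and dynamins cut vesicles free. For HS578T, 5 of the 9 tested genes of this list rose and 2 fell, against 28.6% and 22.1% of all tested genes. For MDA-MB-231, 3 of the 9 rose and 2 fell, against 20.7% and 21.9% of all tested genes. The list's median log2 changes were 0.10 and -0.01 for the respective lines, against 0.04 and 0 over all tested genes. PACSIN2 fell in both lines, from 70.5 and 68.1 to 24.3 and 22.0 TPM in HS578T and from 104 and 108 to 38.6 and 38.9 TPM in MDA-MB-231. Its log2 changes were -1.53 ± 0.061 (adjusted p = 1.35e-11) and -1.46 ± 0.054 (adjusted p = 9.25e-12) by edgeR, close in size to CAV2's and opposite in sign. The dynamins differed. DNM1 fell by 1.21 ± 0.078 and 0.68 ± 0.098 on the log2 scale (adjusted p = 3.49e-09 and 4.02e-05 by edgeR), with group means of 7.54 to 30.3 TPM. DNM2, more abundant with group means of 118 to 166 TPM, rose by 0.10 ± 0.039 and 0.18 ± 0.037 (adjusted p = 0.0438 and 0.00101 by edgeR). EHD2, the EHD protein of caveolae, rose in HS578T (0.23 ± 0.037, adjusted p = 1.03e-04) and did not pass in MDA-MB-231 (0.07 ± 0.043, adjusted p = 0.199), and the difference between the lines did not pass either (adjusted p = 0.0757). Between controls EHD2 was lower in MDA-MB-231, at 118 against 408 TPM. EHD1 rose in both, by 0.23 ± 0.04 and 0.22 ± 0.037 (adjusted p = 1.97e-04 and 1.74e-04 by edgeR).

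**Figure D4:**
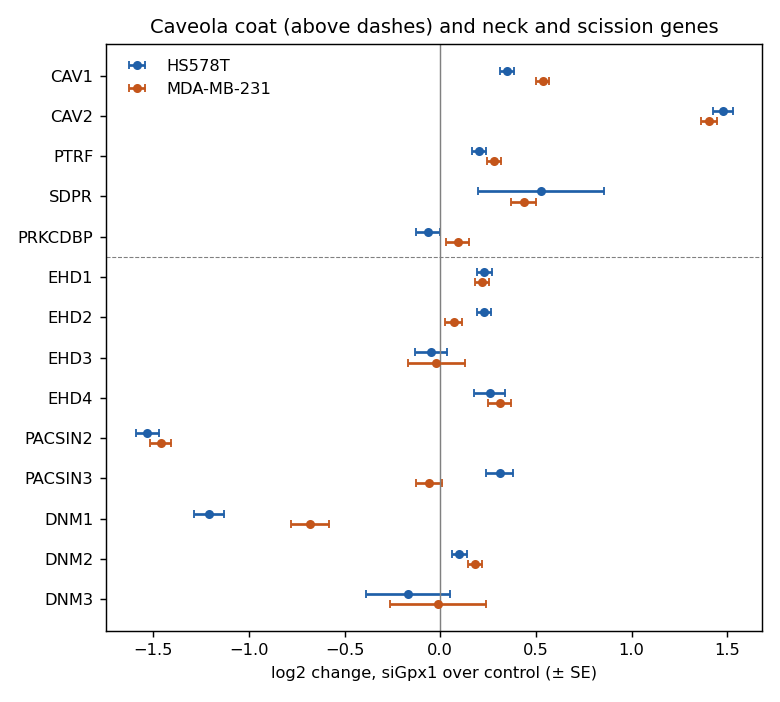
Fitted log2 change after siGpx1 (point, ± SE) of the 5 coat genes (above the dashed line) and the 9 tested neck and scission genes, for each line. PACSIN2 at -1.53 and -1.46 and DNM1 at -1.21 and -0.68 stand to the left, CAV2 to the right.

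An earlier search of these data had picked a set of 7-base words in 3′ untranslated regions: GGGCATC and GGCATCA went with lower expression after depletion and ACTTCGA and TACTTCG with higher expression. None of the 5 coat genes held any of the 4 words on the transcript strand of its longest region, of 217 (PRKCDBP) to 2420 bases (CAV2) in GENCODE 29. Of the other genes named here, only PACSIN2, EHD1, EHD2, DNM1, TES, MET and MURC were read, each in its longest region. Among 12816 tested genes with a region, 14.3% held a word of the first pair and 2.76% of the second. Those shares count a word in any of a gene's regions, a wider search than for the genes read here. PACSIN2 held GGGCATC at 2 places, shown with the word in capitals because this gene had the lowest change of its list in both lines. The words were chosen on these same data, and a match is a description only.
PACSIN2, base 65 of 1582: cagccacgtGGGCATCcactccttt
PACSIN2, base 661 of 1582: tgtgcttttGGGCATCtgaatggaa
EHD1, which rose in both lines, held 1 word of the first pair. MET, which also rose in both, held 1 of the second. DNM1, which fell in both lines, held none, and neither did TES, EHD2 and MURC.

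Other membrane scaffolds and coats gave mixed counts. Of 9 tested flotillins and relatives, which organise membrane domains without caveolae, 6 rose and 1 fell in HS578T and 4 rose and 1 fell in MDA-MB-231, with medians of 0.21 and 0.10 on the log2 scale (0.04 and 0 over all tested genes). For this list and those that follow, 28.6% of all tested genes rose and 22.1% fell in HS578T, with 20.7% and 21.9% in MDA-MB-231. FLOT1 was the member that fell (-1.05 ± 0.061 and -0.51 ± 0.056), FLOT2 rose by 0.21 ± 0.038 and 0.13 ± 0.04 and STOM rose by 0.69 ± 0.063 and 0.46 ± 0.075. ERLIN2 rose in HS578T (0.28 ± 0.041) and was at 0.10 ± 0.041 in MDA-MB-231 (adjusted p = 0.0595 by edgeR). Of 29 clathrin coat and adaptor genes, 11 rose and 11 fell in HS578T and 8 rose and 9 fell in MDA-MB-231. The adaptor subunit AP2M1 fell by 0.79 ± 0.035 and 0.60 ± 0.038, AP2B1 by 0.12 ± 0.033 and 0.59 ± 0.032 and NECAP1 by 0.86 ± 0.091 and 1.05 ± 0.071, while the cargo adaptor DAB2 rose by 1.28 ± 0.044 and 0.24 ± 0.065.

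Of 12 kinases and signalling partners of caveolins and cavins, 4 rose and 3 fell in HS578T and 4 rose and 4 fell in MDA-MB-231. PRKCA, the kinase that cavin-2 binds, rose by 0.63 ± 0.042 and 0.41 ± 0.044 on the log2 scale, and FYN, a Src family kinase, by 0.60 ± 0.059 and 0.49 ± 0.075. ABL1 rose in HS578T (0.36 ± 0.039) and was at 0.05 ± 0.036 in MDA-MB-231 (adjusted p = 0.329 by edgeR). ADCY6, a membrane adenylyl cyclase, fell by 1.48 ± 0.094 and 2.06 ± 0.099. Cholesterol is needed for caveolae. Of 13 tested genes of its uptake, transport and sensing, 6 rose and 6 fell in HS578T and 2 rose and 7 fell in MDA-MB-231. The transcription factors SREBF1 (-0.38 ± 0.065 and -0.52 ± 0.062) and SREBF2 (-0.39 ± 0.056 and -0.22 ± 0.063) fell in both lines, the exporter ABCA1 rose in both (1.11 ± 0.082 and 0.26 ± 0.058) and INSIG1 rose in HS578T (0.71 ± 0.076) and was at 0.15 ± 0.072 in MDA-MB-231 (adjusted p = 0.107 by edgeR).

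Markers of cell types rich in caveolae were near 0 with exceptions. Of 8 endothelial markers, summed at 3.66 to 4.19 TPM in HS578T controls and 5.8 to 6.25 TPM after depletion, VWF and CDH5 had group means of 0.04 TPM or less in both lines. In MDA-MB-231 the sum was 63.8 to 64.5 and 55.1 to 55.4 TPM, mostly ESAM, which fell there (-0.24 ± 0.067). PECAM1 rose in HS578T (0.83 ± 0.15) and fell in MDA-MB-231 (-0.57 ± 0.2), and KDR, at 1.83 TPM or less, rose in both (1.28 ± 0.48 and 1.01 ± 0.26). Of 7 adipocyte markers ADIPOQ, LEP, CIDEC and CIDEA had 0 counts in every library, and the sum of 38.0 to 54.0 TPM was mostly PPARG, which rose in both lines (0.24 ± 0.074 and 0.28 ± 0.076). LPL was at 0 TPM in HS578T and did not pass in MDA-MB-231. Of 8 muscle markers MYOD1, MYOG and MYH7 had 0 counts in every library, while smooth muscle ACTG2 had 575 TPM in HS578T controls and 741 TPM after depletion and at most 0.075 TPM in MDA-MB-231. ACTG2 rose in HS578T (log2 change 0.42 ± 0.05), while CNN1, another smooth muscle gene, fell there from 19.7 to 8.67 TPM (-1.13 ± 0.21, adjusted p = 4.99e-04 by edgeR) and had 0 TPM in MDA-MB-231. MYH11 was at 0.355 TPM or less in every group and passed in neither line. Among leukocyte markers, CD3E and MS4A1 had 0 counts in every library, while the myeloid genes CSF1R and CD14 were present at low levels. CSF1R fell in both lines, from 7.3 to 2.26 and from 9.32 to 3.8 TPM (-1.63 ± 0.16 and -1.30 ± 0.14). CD14 was at 7.56 and 9.32 TPM in HS578T (adjusted p = 0.0715) and rose from 6.32 to 12.9 TPM in MDA-MB-231 (adjusted p = 6.86e-05 by edgeR). The 10 epithelial markers summed to between 357 and 364 TPM in HS578T controls and between 942 and 1040 TPM after depletion. In MDA-MB-231 they summed to between 2650 and 2660 TPM and then between 3860 and 3960 TPM. The HS578T sum was mostly KRT18, at 322 TPM in controls and 949 TPM after depletion. KRT8 went from 26.7 to 33.4 TPM there and KRT7 from 10.5 to 7.82 TPM, which did not pass (adjusted p = 0.0805 by edgeR). Of 8 epithelial markers tested, 2 rose and 0 fell in HS578T and 6 rose and 1 fell in MDA-MB-231. KRT18 was at 1.62 ± 0.051 and 0.65 ± 0.048 on the log2 scale, and CLDN4 was the gene that fell in MDA-MB-231 (-0.43 ± 0.056). The part of these marker differences in the caveolin and cavin changes was not tested. In bulk RNA, fewer cells of a type and less RNA per cell cannot be told apart.

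The genes most like each coat gene were found by distance over 3 fitted log2 values (the change in each line and the difference between controls) among 11040 genes with a mean of at least 5 CPM. Nearest to CAV1 were BTG1 (distance 0.0853), ASH1L (0.101) and DNAH5 (0.118). Nearest to CAV2 were PCTP (0.336), MRS2 (0.36) and MYO6 (0.362), a wider gap than for CAV1, PTRF or PRKCDBP. PTRF had ZADH2, GBAS and SH3BGRL (0.0453 to 0.0654) and PRKCDBP had TNRC6A, SLC25A16 and AIDA (0.0338 to 0.0441). Nearest to SDPR was MMP1 (0.0676), with log2 changes of 0.50 in both lines and a control difference of 5.45, followed by ANXA8L2 (0.248) and AFAP1L2 (0.282). SDPR's own change in HS578T, among the 3 values used, was 0.53 ± 0.33 from low counts. That SE exceeds each of SDPR's distances, so the order of its nearest genes is loosely set.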

How the data were processed

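The deposited tables gave, per library and gene symbol, expected counts, TPM values and effective lengths. Per the submitters' processing notes, they were made with RSEM 1.2.12 after FastQC on build hg19; the aligner is not given in the sources used here. The expected counts deposited by the authors are RSEM's estimates of reads per gene, of which 94.7 to 94.9% were whole numbers (within 1e-09), and all were rounded. The TPM values deposited by the authors divide these estimates by effective length, in bases, and scale to a fixed total. Overlapping and near-identical genes can share reads.

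Genes were kept by edgeR's filterByExpr (14249), scaled by TMM and fitted over all 8 libraries with a mean for each group (residual df 4, common biological coefficient of variation 0.0342). Calls are at a Benjamini-Hochberg adjusted p under 0.05 over all genes. Each standard error was taken as |log2 change| divided by the root of the F statistic. In simulated counts with 50 genes seeded per size, the fit found 32% of 1.25-fold, 66% of 1.5-fold, 88% of 2-fold and 94% of 4-fold changes in HS578T. In MDA-MB-231 it found 46, 76, 90 and 94%. False calls made up 4.11 and 5.56%. All genes not seeded were set to no change after depletion in either line, and every gene was drawn at the common coefficient of variation. A much larger share of genes was called in the data, so these figures are not the power of the fit there. Alternatives were DESeq2 size factors, DESeq2, limma-voom, no filter, a stricter filter (5 CPM in 2 libraries), limma on log2(TPM + 1) or log2(TPM + 0.1), the replicate block, each line alone and each library left out. A marker gene of the lists is not reported here. Members, lists and words were chosen with earlier results of these data known. Named genes were the 5 members, GPX1, up to 4 of each list by smallest p over both depletion comparisons (all of lists of 5 or fewer), and the 3 nearest by distance per member, passing over LOC, LINC, MIR and SNOR symbols and those with a hyphen. Marker genes at or near 0, DNM2 and CLDN4 were named outside this rule, after their values were seen. Software was R 4.3.3, edgeR 4.0.16, limma 3.58.1, DESeq2 1.42.0, Python 3.11.15, numpy 2.4.6, pandas 2.3.3 and matplotlib 3.10.9.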

Additional observations from a re-analysis of the deposited data

Results flagged for a closer look

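The change after depletion differed between the lines, by the test of the difference itself in edgeR (MDA-MB-231 change minus HS578T change, log2 scale, Benjamini-Hochberg adjustment), for CAV1 and for 15 of 41 tested genes named from the lists, or 36.6%, where 17% of all tested genes differed in either direction. These list genes had been named by their smallest p after depletion, and genes named outside that rule are not counted. For CAV1 the difference was 0.18 (adjusted p = 0.0223), and both lines rose. Among neck, scaffold and clathrin genes it was 0.53 for DNM1 (adjusted p = 0.00885), 0.54 for FLOT1 (adjusted p = 3.72e-04), -0.46 for AP2B1 (adjusted p = 6.56e-06), 0.20 for AP2M1 (adjusted p = 0.0163) and -1.04 for DAB2 (adjusted p = 5.12e-07). Among signalling and cholesterol genes it was -0.31 for ABL1 (adjusted p = 9.04e-04), -0.21 for PRKCA (adjusted p = 0.0242), -0.57 for ADCY6 (adjusted p = 0.013), -0.85 for ABCA1 (adjusted p = 3.33e-05) and -0.56 for INSIG1 (adjusted p = 0.00184). TES, beside CAV2, gave -0.78 (adjusted p = 7.1e-07). Among markers it was 0.82 for KRT7 (adjusted p = 0.00413), 0.37 for KRT8 (adjusted p = 0.0107), -0.97 for KRT18 (adjusted p = 3.37e-07) and -1.40 for PECAM1 (adjusted p = 0.00144). PECAM1, an endothelial adhesion molecule, had a mean of 5.32 TPM or less in every group.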

How the results depend on the processing

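The rises of CAV1 and PTRF in both lines kept their direction and their call under every alternative, with log2 changes of 0.30 to 0.38 and 0.53 to 0.60 for CAV1 and 0.15 to 0.21 and 0.28 to 0.38 for PTRF in HS578T and MDA-MB-231. PRKCDBP passed in neither line under any alternative (lowest adjusted p = 0.0649 and 0.057). CAV2's change was 1.40 and 1.42 in HS578T with limma on log2(TPM + 1) and log2(TPM + 0.1), 1.46 in MDA-MB-231 with the stricter filter, and 1.41 to 1.53 and 1.41 to 1.5 with 1 library left out. SDPR's rise in MDA-MB-231 was 0.44 with log2(TPM + 0.1) (adjusted p = 0.0984 by limma). The cause of these differences was not tested.

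Differences between the lines depended more on the setting. For CAV1 the range without 1 library was 0.16 to 0.30. For CAV2 it was -0.12 to 0.06, with -0.01 with DESeq2 size factors in edgeR, -0.02 by DESeq2, 0.03 with the stricter filter, and 0.01 and 0 with the TPM scales. For SDPR it was -0.31 to 0.19, with 0.01 under the stricter filter and 0.22 and 0.02 with log2(TPM + 1) and log2(TPM + 0.1). PTRF gave 0.08 to 0.22 without 1 library and 0.18 with the stricter filter, and PRKCDBP 0.26 with that filter. SDPR's sign reversed without HS578T control replicate 2 (0.12), HS578T siGpx1 replicate 2 (0.19), MDA-MB-231 control replicate 1 (0.01), MDA-MB-231 control replicate 2 (0) and MDA-MB-231 siGpx1 replicate 2 (0.07). Between controls PRKCDBP was -0.02 to 0.12 without 1 library, negative without MDA-MB-231 control replicate 2, and 0.22 and 0.22 on the 2 TPM scales (adjusted p = 0.00185 and 0.00227 by limma), where the median of all genes was 0.17 and 0.18. The summed level of the 5 genes in HS578T rose 1.18-fold in TPM and 1.22-fold in TMM-scaled counts per length.

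Counts over all genes moved by more than 1.5 times in the comparison of the lines, where 900 were called higher and 1528 lower. The split was 1251 and 1000 with DESeq2 size factors, 736 and 543 by DESeq2, 1684 and 797 with the stricter filter, and 1144 and 994 or 928 and 804 on the 2 TPM scales. The count called lower was 991 and 968 without HS578T control replicate 1 or 2, and 513 to 549 without any 1 MDA-MB-231 library, where 1006 to 1108 were higher. In MDA-MB-231 2950 rose and 3116 fell, against 3652 and 2544 with the stricter filter, and the count that fell was 1938 by DESeq2 and 2033 to 2076 without control replicate 2 or either siGpx1 replicate. List counts were recomputed under the stricter filter alone, where the ones that moved were in lists with few tested genes or in the comparison of the lines.

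Replicate numbers were checked as a possible pairing: same-numbered deviations correlated at -0.0467 in HS578T and 0.0513 in MDA-MB-231. These values gave no sign of pairing by number, and they do not settle how the replicates were prepared. The replicate block changed no call of the 5 genes, with CAV1 at 0.35 and 0.53. SDPR's low counts in HS578T limit what could be seen of it there.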
